A study of Mus with 9 samples.

Results

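Claudins are the membrane proteins that join neighbouring epithelial cells at the tight junction, and the levels of 10 of them that line successive stretches of the nephron (Cldn1, Cldn2, Cldn3, Cldn4, Cldn7, Cldn8, Cldn10, Cldn14, Cldn16 and Cldn19) were followed in kidney RNA. They were picked by gene symbol from the 54532 genes of the table, and each symbol matched 1 row. Counts of 9 of the 10 were high enough to be tested, while Cldn14 was too low, and 15902 genes were tested in all. The RNA came from the kidneys of 9 male mice of the C57BL/6 strain, and each of 3 groups held 3 of them. All mice had 1 kidney removed at 18 months of age, so that every group is a remnant-kidney group and no mouse with both kidneys was analysed here. The 18 mo mice were killed 1 week after surgery and received no injections. The 21 mo mice were injected intraperitoneally with saline every day for 12 weeks, and the 21 mo/O304 mice with O304, a small-molecule activator of the energy-sensing kinase AMPK, at 10 mg/kg/d over the same 12 weeks. Age, time after surgery and injection all differ between the 18 mo group and the others, and cannot be told apart in a comparison with it.

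In each tubule segment a particular mixture of claudins sets how tight the path between cells is and which ions may cross it. Some claudins seal the junction, others form pores for cations or for anions, and several of these functions are known from inherited disorders of calcium and magnesium handling. In the proximal tubule Cldn2 forms a pore for sodium and water. In the thick ascending limb Cldn10, Cldn16 and Cldn19 carry or steer the reabsorption of sodium, calcium and magnesium, and Cldn14 restrains the channel of Cldn16 and Cldn19. In the collecting duct Cldn3, Cldn4, Cldn7 and Cldn8 line the tight distal epithelium. Cldn1, a sealing claudin, is known from the parietal cells of Bowman's capsule.

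The libraries held between 15636378 and 18396725 counts, and all kidney segments were represented by their markers, with Lrp2 (proximal tubule), Umod (thick ascending limb), Slc12a3 (distal convoluted tubule) and Aqp2 (collecting duct) detected in all 9. The 21 mo libraries differed among themselves. Their biological coefficient of variation was 44.2%, against 18.1% in 18 mo and 20.6% in 21 mo/O304. Across genes, the correlation of log2 CPM (counts scaled to library size) with the 18 mo libraries averaged 0.970 for 21 mo replicate 1 and 0.868 for replicate 3. The summed level of 16 tubule injury markers was 1915, 14610 and 18348 CPM in 21 mo replicates 1, 2 and 3, and ranged from 1206 to 1343 CPM in 18 mo and from 1220 to 1760 CPM in 21 mo/O304. Summed proximal tubule markers (12 genes) were 16986, 8670 and 2434 CPM in the same 21 mo mice, against 15522 to 19379 CPM in 18 mo. In 18 mo, replicate 1 held 9698 CPM of thick ascending limb markers (11 genes) against 4186 and 4434 CPM in the other two libraries. In bulk RNA, fewer cells of a type and less RNA per cell cannot be told apart.

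The genes lie at scattered places in the genome apart from 2 neighbouring pairs (coordinates of the deposited table, GRCm38). Cldn3 (chromosome 5, 134986214 to 134987472, plus strand) and Cldn4 (134945119 to 134946934, minus strand) face away from each other across 39279 bases with no gene of the table between them. Cldn1 (chromosome 16, 26356642 to 26371841, minus strand) and Cldn16 (26463135 to 26482765, plus strand) lie 91293 bases apart, also with none between. Chromosome 16 carries Cldn8 (88560828 to 88563183, minus strand) and Cldn14 (93919031 to 94008837, minus strand) as well. The others are Cldn2 on chromosome X (139800828 to 139811386), Cldn7 on chromosome 11 (69964779 to 69967885), Cldn10 on chromosome 14 (118787908 to 118875489) and Cldn19 on chromosome 4 (119255414 to 119262438), all on the plus strand. All are protein-coding, and the counts are sums over all exons of a gene, so the isoforms of Cldn10, which differ in ion selectivity, are not separated. Antisense genes overlap Cldn3 (Wbscr25) and Cldn19 (Gm12927), and had at most 1 and 13 counts in any library.

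Levels of different genes were ordered on the deposited FPKM scale, which divides by gene length. In 18 mo, Cldn2 was the most abundant, at 154 ± 10.5 FPKM (SD, n = 3), followed by Cldn10 at 79.9 ± 11.6 and Cldn8 at 22.0 ± 2.70. These 3 did not overlap with each other or with the next in order. Cldn16, Cldn7, Cldn4, Cldn19 and Cldn3 followed with means between 6.97 and 8.92 FPKM, and each overlapped with its neighbour in the order. Cldn1 stood at 3.63 ± 1.08 FPKM and Cldn14 at 0.0367 ± 0.0166 FPKM. The order in 21 mo/O304 was again Cldn2 (196 ± 14.8 FPKM), Cldn10 (72.7 ± 9.13) and Cldn8 (27.0 ± 3.46) without overlap, then Cldn4, Cldn7, Cldn16, Cldn3, Cldn1 and Cldn19, of which each overlapped with its neighbour. Cldn14 was again the lowest. In 21 mo, Cldn4 ranked just below Cldn10, at 42.3 ± 45.4 FPKM, and every neighbour in the order from Cldn2 down to Cldn1 overlapped.

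The make-up of the claudin transcripts showed the same spread among the 21 mo mice. All claudin genes of the table, 35 with pseudogenes, summed to between 313 and 410 FPKM in the 9 libraries, and the 10 genes made up 88.0% to 91.8% of it. Cldn2 alone held 40.6%, 49.7% and 49.2% of the sum in the 18 mo mice, 53.3%, 37.4% and 20.8% in the 21 mo mice and 54.1%, 55.5% and 50.5% in the 21 mo/O304 mice. Cldn4 held 2.12%, 2.31% and 2.47% in 18 mo, 1.51%, 7.26% and 24.4% in 21 mo, and 2.55%, 1.55% and 2.25% in 21 mo/O304. In 21 mo replicate 3, Cldn3, Cldn4, Cldn7 and Cldn8 together made up 53.0% of the sum, against 10.5% in 21 mo replicate 1. The share of Cldn2 and Cldn10 together was 27.1% in 21 mo replicate 3 and 74.2% in replicate 1.

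**Figure D1:**
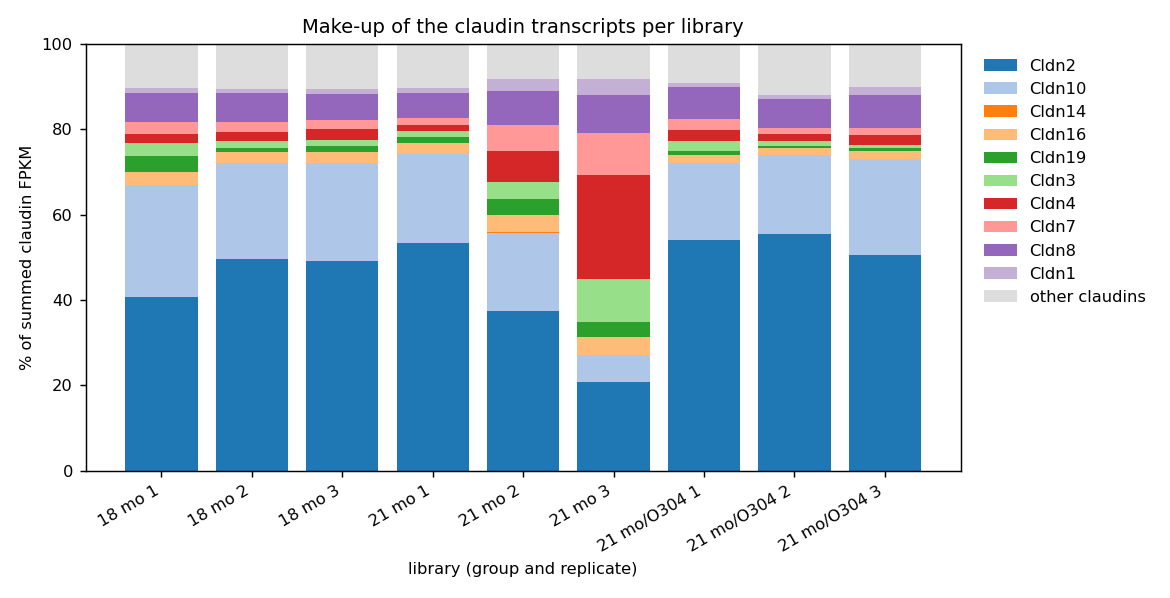
Stacked bars give the percent of the summed claudin FPKM held by each of the 10 claudins in each library, with the other claudins in grey. Cldn2 and Cldn10 fill most of each bar except in 21 mo replicate 3, where Cldn4 holds 24.4%.

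Cldn2, the cation and water pore of the proximal tubule, measured 499.8, 559 and 528 CPM in the 18 mo mice, 750.4, 483 and 275 CPM in the 21 mo mice and 729.7, 659.8 and 630.2 CPM in the 21 mo/O304 mice. The 21 mo mice lay both above and below all other mice, and the 21 mo/O304 mice all lay above the 18 mo mice. The fitted log2 fold change was -0.07 (SE 0.31) for 21 mo against 18 mo (adjusted p = 0.900, edgeR quasi-likelihood test with Benjamini-Hochberg adjustment over all 15902 genes, as for the adjusted p-values that follow). It was 0.42 (SE 0.32) for 21 mo/O304 against 21 mo (edgeR adjusted p = 0.440) and 0.35 (SE 0.32) for 21 mo/O304 against 18 mo (edgeR adjusted p = 0.774). Without 21 mo replicate 3 the log2 fold change of Cldn2 for 21 mo against 18 mo was 0.21. Set against the mean log2 level of 12 proximal tubule markers, Cldn2 was 0.98 log2 units higher in 21 mo than in 18 mo, with no overlap between the groups (p = 0.1 in a two-sided exact permutation test, which is as low as 3 against 3 mice can reach). The markers themselves were 1.16 log2 units lower in 21 mo, while Cldn2 was 0.19 lower on the same scale. Against 18 mo, 21 mo/O304 was 0.34 higher on this relative scale, again without overlap (exact permutation p = 0.1).

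Cldn10 forms the sodium path of the thick ascending limb and, in another isoform, an anion path in the proximal tubule. It measured 252, 197 and 192 CPM in 18 mo, 229.98, 185 and 64.8 CPM in 21 mo and 189.9, 172 and 220.3 CPM in 21 mo/O304. The 21 mo replicate 3 library was the lowest of the 9, and the other 8 lay within 172 to 252 CPM. The log2 fold change was -0.42 (SE 0.38) for 21 mo against 18 mo, then 0.28 (SE 0.38) for 21 mo/O304 against 21 mo and -0.14 (SE 0.38) for 21 mo/O304 against 18 mo, with edgeR adjusted p-values of 0.501, 0.675 and 0.944. Without 21 mo replicate 3 the difference between 21 mo/O304 and 21 mo had the opposite sign, at -0.09. Cldn2 and Cldn10 varied alike over the 9 libraries (Pearson r = 0.81 of log2 CPM, a description over libraries that share groups).

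Cldn16 and Cldn19 together make up the calcium and magnesium path of the thick ascending limb, and loss of either causes inherited magnesium wasting. Cldn16 measured 13.2, 9.37 and 9.84 CPM in 18 mo, 12.2, 18.1 and 19.1 CPM in 21 mo and 8.32, 6.08 and 8.40 CPM in 21 mo/O304. Each 21 mo/O304 mouse lay below every mouse of the other groups. The log2 fold change was 0.61 (SE 0.23, edgeR adjusted p = 0.146) for 21 mo against 18 mo, -1.12 (SE 0.24, edgeR adjusted p = 0.175) for 21 mo/O304 against 21 mo and -0.51 (SE 0.24, edgeR adjusted p = 0.533) for 21 mo/O304 against 18 mo. Cldn19 measured 59.3, 15.9 and 18.3 CPM in 18 mo, 25.0, 62.9 and 61.3 CPM in 21 mo and 17.7, 10.3 and 9.42 CPM in 21 mo/O304. All 21 mo/O304 mice were lower than all 21 mo mice, and 1 of them lay within the range of 18 mo. The log2 fold change of Cldn19 was 0.68 (SE 0.54, edgeR adjusted p = 0.442), -1.99 (SE 0.56, edgeR adjusted p = 0.175) and -1.32 (SE 0.56, edgeR adjusted p = 0.496) in the same order. The high value in 18 mo replicate 1 stood in the library with the most thick ascending limb markers, and without that library the first of these values was 1.53 and the last was -0.45. Relative to the mean log2 level of those markers, Cldn19 was at -2.38, -3.25 and -3.07 log2 units in 18 mo replicates 1, 2 and 3. Group differences on that scale follow, and whether the marker level accounts for the differences above was not tested.

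Relative to the mean log2 level of the 11 thick ascending limb markers, Cldn19 was 1.73 log2 units lower in 21 mo/O304 than in 21 mo and 0.69 lower than in 18 mo, both without overlap (exact permutation p = 0.1 each, the smallest possible). Cldn16 was 0.90 lower than in 21 mo (exact permutation p = 0.2) and 0.09 lower than in 18 mo (exact permutation p = 0.9) on that scale. Of the 27 relative differences computed over these claudins, the smallest exact p was 0.1, so none could pass a threshold of 0.05 even before adjustment. Cldn16 and Cldn19 varied alike over the libraries (r = 0.92).

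Cldn14, the inhibitor of the Cldn16 and Cldn19 channel, had 2, 1 and 1 counts in 18 mo, 1, 14 and 17 counts in 21 mo and 1, 1 and 0 counts in 21 mo/O304. It was thus above 3 counts in 21 mo replicates 2 and 3 alone, and failed the filter on low counts in the fit to all 9 libraries, so no fold change is given.

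**Figure D2:**
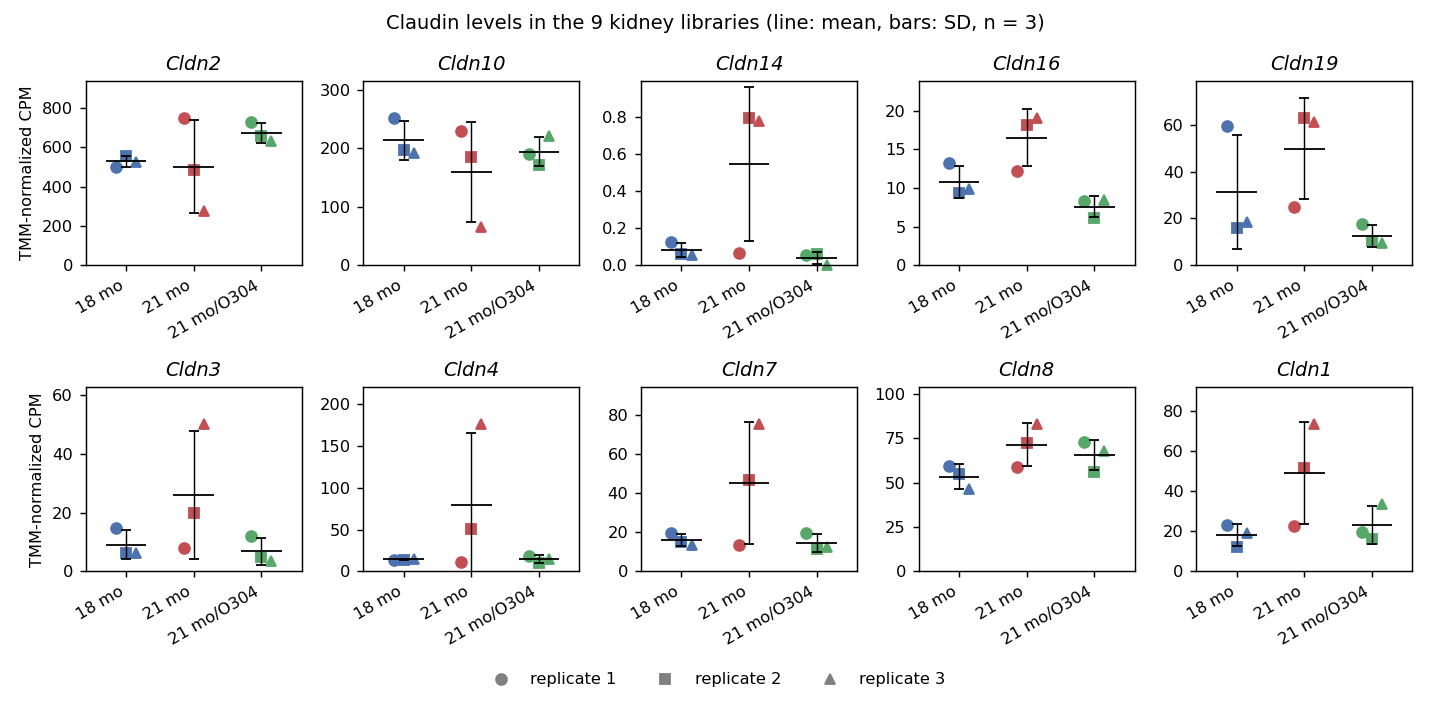
Each panel shows 1 claudin on a linear axis from 0 in TMM-normalized CPM, with 1 point per mouse, a line for the group mean and bars for the SD (n = 3). In 21 mo, replicates 2 and 3 (squares and triangles) lie above replicate 1 for Cldn1, Cldn3, Cldn4, Cldn7, Cldn8, Cldn14, Cldn16 and Cldn19 and below it for Cldn2 and Cldn10.

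Among the claudins of the distal tubule and collecting duct, Cldn4 spread the most. Cldn4, which with Cldn8 forms a chloride path, measured 14.2, 14.2 and 14.5 CPM in 18 mo, 11.6, 51.3 and 176 CPM in 21 mo and 18.8, 10.1 and 15.3 CPM in 21 mo/O304. Against the 18 mo mean of 14.3 CPM, 21 mo replicates 2 and 3 were 3.58 and 12.3 times as high and replicate 1 was 0.814 times as high. The log2 fold change was 2.48 (SE 0.76, edgeR adjusted p = 0.0992) for 21 mo against 18 mo, -2.44 (SE 0.76, edgeR adjusted p = 0.178) for 21 mo/O304 against 21 mo and 0.04 (SE 0.74, edgeR adjusted p = 0.992) for 21 mo/O304 against 18 mo. The coefficient of variation of Cldn4 was 1.13% in 18 mo, 108% in 21 mo and 29.8% in 21 mo/O304.

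Cldn3, a sealing claudin found along the distal nephron and transcribed away from the adjacent Cldn4, measured 14.8, 6.29 and 6.17 CPM in 18 mo, 7.96, 19.9 and 50.3 CPM in 21 mo and 11.98, 4.77 and 3.69 CPM in 21 mo/O304. Here too 21 mo replicates 2 and 3 were the highest of the 9, and replicate 1 lay within the range of 18 mo. The log2 fold change was 1.52 (SE 0.69, edgeR adjusted p = 0.201), -1.94 (SE 0.70, edgeR adjusted p = 0.196) and -0.41 (SE 0.69, edgeR adjusted p = 0.900) for the 3 comparisons in the order used above. Without 18 mo replicate 1, the last of these was 0.13.

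Cldn7, which lies at the lateral membrane of distal tubule cells as well as at the junction, measured 19.6, 15.2 and 13.6 CPM in 18 mo, 13.4, 46.7 and 75.2 CPM in 21 mo and 19.5, 11.2 and 12.4 CPM in 21 mo/O304. Its log2 fold change was 1.48 (SE 0.51, edgeR adjusted p = 0.120), -1.65 (SE 0.52, edgeR adjusted p = 0.178) and -0.16 (SE 0.51, edgeR adjusted p = 0.952). Cldn7 was below the 18 mo range in 21 mo replicate 1 and above it in the other 21 mo mice.

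Cldn8, the partner of Cldn4, spread far less. It measured 59.6, 54.5 and 46.1 CPM in 18 mo, 58.7, 72.1 and 82.9 CPM in 21 mo and 72.6, 56.2 and 67.9 CPM in 21 mo/O304. The ranges overlapped in all comparisons, and the log2 fold change was 0.42 (SE 0.16, edgeR adjusted p = 0.156), -0.12 (SE 0.16, edgeR adjusted p = 0.676) and 0.30 (SE 0.16, edgeR adjusted p = 0.606). Relative to 11 collecting duct principal cell markers, Cldn8 was 0.68 log2 units higher in 21 mo/O304 than in 18 mo, without overlap (exact permutation p = 0.1). Cldn8 itself was 0.30 log2 units higher there, and the marker mean was 0.39 lower. On the relative scale Cldn4 was 1.54, Cldn3 1.08 and Cldn7 1.00 higher in 21 mo than in 18 mo, where the groups overlapped and the exact permutation p was 0.3, 0.2 and 0.4. The marker mean itself was 0.17 higher in 21 mo. The summed principal cell markers were 922, 1254 and 892 CPM in 21 mo replicates 1, 2 and 3. They ranged from 806 to 1109 CPM in 18 mo and from 702 to 1108 CPM in 21 mo/O304.

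Cldn1, a sealing claudin, measured 23.2, 12.1 and 19.1 CPM in 18 mo, 22.6, 51.5 and 73.5 CPM in 21 mo and 19.8, 16.0 and 33.9 CPM in 21 mo/O304. The high mice were again 21 mo replicates 2 and 3, and 21 mo replicate 1 lay within the 18 mo range. The log2 fold change was 1.44 (SE 0.44, edgeR adjusted p = 0.0992), -1.09 (SE 0.44, edgeR adjusted p = 0.218) and 0.36 (SE 0.44, edgeR adjusted p = 0.846). Podocyte markers, of the glomerulus that Bowman's capsule surrounds, summed to 269, 272 and 727 CPM in 21 mo replicates 1, 2 and 3. They summed to between 261 and 377 CPM in 18 mo and between 277 and 451 CPM in 21 mo/O304.

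**Figure D3:**
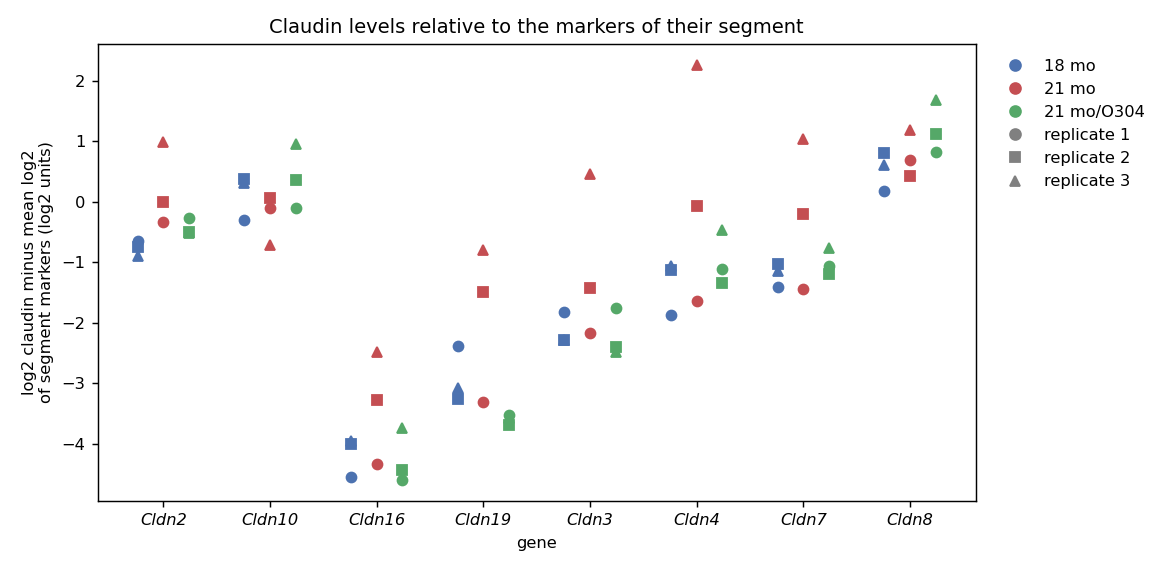
Points give, per mouse, the log2 CPM of a claudin minus the mean log2 CPM of the markers of its segment (proximal tubule for Cldn2, thick ascending limb for Cldn10, Cldn16 and Cldn19, collecting duct principal cells for Cldn3, Cldn4, Cldn7 and Cldn8, with Cldn1 and Cldn14 not drawn). The Cldn10 counts do not separate its thick ascending limb and proximal tubule isoforms. For Cldn2 every 21 mo mouse lies above every 18 mo mouse, and for Cldn19 every 21 mo/O304 mouse lies below every other mouse.

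For 21 mo against 18 mo, none of the 9 claudins tested passed an adjusted p of 0.05, when 0.0189% of all genes (3 of 15902) passed as higher and 0% as lower. An unadjusted p under 0.05 was found for 5 (Cldn1, Cldn4, Cldn7, Cldn8 and Cldn16), all higher in 21 mo, beside 14.0% of all genes higher and 12% lower at that level. In none of the 9 were the groups free of overlap, where 13.5% of all genes lay entirely higher and 15.3% entirely lower. The median log2 fold change of the 9 was 0.68, and that of all genes tested was 0.03. The count depended on 21 mo replicate 1. Without that library, 6 of the same 9 claudins had an adjusted p under 0.05 and were higher in 21 mo, namely Cldn1, Cldn3, Cldn4, Cldn7, Cldn8 and Cldn16, in a fit where 13.6% of 16463 genes were called higher. Cldn14 passed the filter in that fit only through the group where it is high, and is not counted. The log2 fold changes of Cldn4, Cldn7 and Cldn1 were then 3.01 (SE 0.45), 1.93 (SE 0.29) and 1.80 (SE 0.35), with edgeR adjusted p-values of 0.00532, 0.00532 and 0.0106. These were their highest values when single libraries were left out. Without 21 mo replicate 3 instead, Cldn4 was at 1.12, Cldn7 at 0.879 and Cldn1 at 1.013, their lowest values. DESeq2 on all 9 libraries called 3 (Cldn1, Cldn4 and Cldn7) higher, with 6.90% of all genes called higher and 5.41% lower. limma voom with sample quality weights called 7 higher, with 26.3% of all genes higher and 26.6% lower, and gave 21 mo replicate 2 a weight of 9.11 and replicates 1 and 3 weights of 0.223 and 0.132.

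Between 21 mo/O304 and 21 mo, again none of the 9 passed an adjusted p of 0.05, with 0% of all genes passing in either direction. An unadjusted p under 0.05 was found for 6 (Cldn1, Cldn3, Cldn4, Cldn7, Cldn16 and Cldn19), all lower in 21 mo/O304, beside 12.4% of all genes lower and 8.27% higher. The groups did not overlap for Cldn16 and Cldn19, both lower, which is 2 of 9 beside 10.5% of all genes lower and 10.8% higher. The median log2 fold change was -1.12, and that of all genes was -0.02. Without 21 mo replicate 1, 6 of the same 9 had an adjusted p under 0.05 and were lower (Cldn1, Cldn3, Cldn4, Cldn7, Cldn16 and Cldn19), with 12.6% of all genes called lower. Cldn2 was then called higher, at 0.82 (SE 0.24, edgeR adjusted p = 0.0428), with 10.6% of all genes called higher. In that fit Cldn4 was at -2.95 (SE 0.45, edgeR adjusted p = 0.00725) and Cldn16 at -1.30 (SE 0.21, edgeR adjusted p = 0.00871). Without 21 mo replicate 3 instead, Cldn4 was at -1.09, Cldn16 at -0.99 and Cldn2 at 0.13, and none was called. DESeq2 called 4 lower (Cldn4, Cldn7, Cldn16 and Cldn19), with 4.04% of all genes lower and 1.71% higher. limma voom with weights called 6 lower, with 19.8% of all genes, and Cldn2 higher, with 21.2%. Both this and the previous comparison use the same 21 mo mice, so the opposite signs of a claudin in them are not independent.

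Between 21 mo/O304 and 18 mo, no claudin passed the adjusted threshold, and 0% of all genes did in either direction. At an unadjusted p under 0.05 stood Cldn19 alone, lower in 21 mo/O304, beside 5.33% of all genes lower and 4.33% higher. Cldn2 was higher without overlap and Cldn16 lower without overlap, beside 13.2% and 13.3% of all genes. The median log2 fold change of the 9 was -0.14, and that of all genes was 0.00. DESeq2 and limma voom with weights called 0 claudins here, when DESeq2 called 0.325% of all genes higher and 0.559% lower and limma voom 1.04% higher and 1.57% lower.

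**Figure D4:**
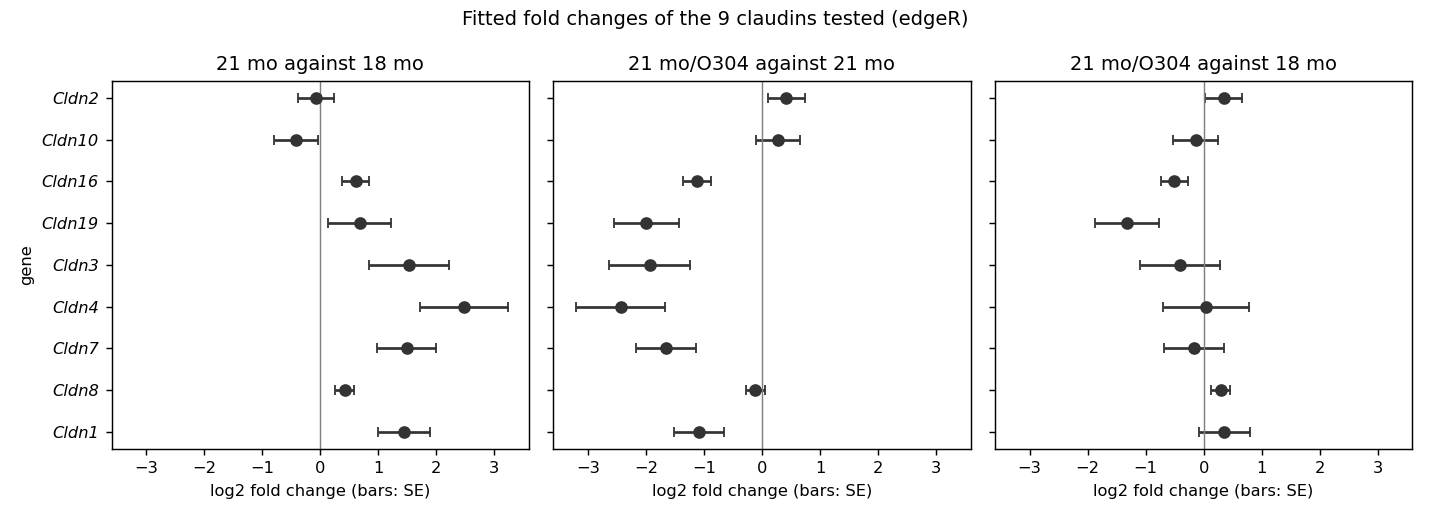
Points are edgeR log2 fold changes and bars their SE, for the 9 claudins tested in the 3 comparisons. Cldn1, Cldn3, Cldn4 and Cldn7 lie above 1 in the first panel and, with Cldn16 and Cldn19, below -1 in the second, while no adjusted p was under 0.05.

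Over the 9 libraries, Cldn1, Cldn3, Cldn4, Cldn7, Cldn16 and Cldn19 correlated positively with each other (15 pairs, Pearson r of log2 CPM from 0.63 to 0.97) and negatively with Cldn2 and Cldn10 (12 pairs, r from -0.87 to -0.35). The highest pair was Cldn4 with Cldn7 (0.97), then Cldn3 with Cldn7 (0.94), and the lowest was Cldn2 with Cldn4 (-0.87). These values describe 9 mice in which the 21 mo replicates 2 and 3 stand apart, and they have no p. The protein-coding genes with the most similar pattern, among 13916, were Abhd17c (0.99), Tmem106b (0.99) and Cul3 (0.99) for Cldn2, and Ranbp1 (0.99), Krt18 (0.99) and Pycard (0.99) for Cldn4. Of these, Cul3 is also in the list of claudin regulators and Krt18 among the injury markers. Jazf1 (1.00), Elf3 (0.99) and Mal2 (0.99) came closest to Cldn7, and Mal (0.98), Adgrg1 (0.98) and Specc1 (0.97) to Cldn3. For Cldn10 they were Med14 (0.98), Enpp3 (0.97) and Calr3 (0.97), for Cldn8 Mak16 (0.97), Gabarap (0.96) and Pemt (0.96), and for Cldn1 Cenpt (0.97), Ctse (0.97) and Ikbkap (0.97). For Cldn16 they were Igsf9b (0.99), Gja5 (0.98) and Rbbp7 (0.97), and for Cldn19 Cd82 (0.98), Slc4a8 (0.98) and Slco4a1 (0.97).

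**Figure D5:**
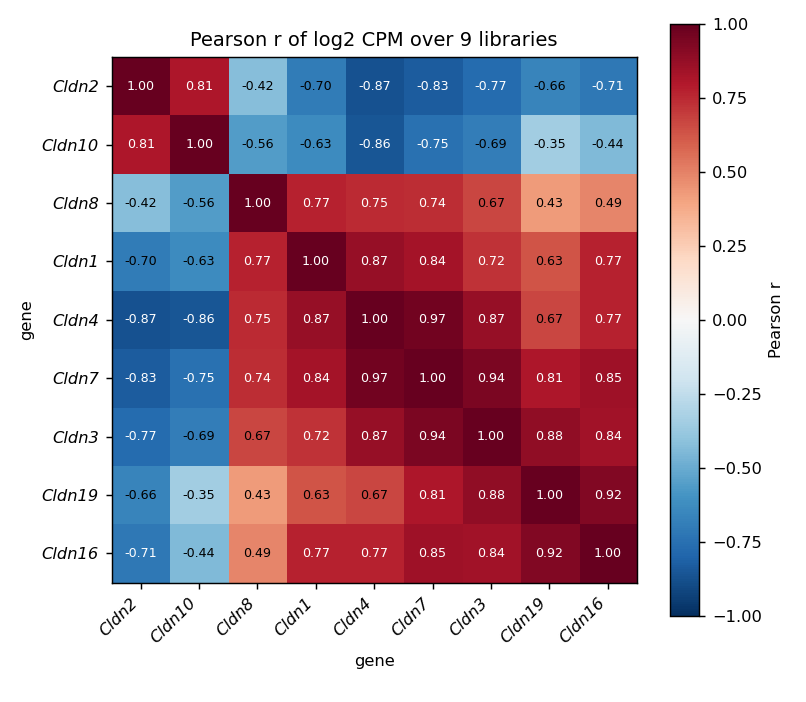
The colour and number in each cell are the Pearson r of log2 CPM between a pair of claudins over the 9 libraries. Cldn2 and Cldn10 are positively correlated with each other and negatively with the other claudins, down to -0.87 for Cldn2 with Cldn4.

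The other claudins were tested in the same way. Of 29 genes in a list of the rest of the family and its relatives, 27 were in the table and 7 were tested, and 0 passed the adjusted threshold in any comparison, with 0, 1 and 0 higher and 1, 1 and 1 lower at an unadjusted p under 0.05 in the order used above. The shares of all genes at that level were 14.0%, 8.27% and 4.33% higher and 12%, 12.4% and 5.33% lower. Of these 7, DESeq2 called Cldn18 lower in 21 mo than in 18 mo (5.41% of all genes), and Cldn18 higher and Cldn6 lower in 21 mo/O304 than in 21 mo (1.71% and 4.04%). limma voom with weights called 2 higher and 1 lower in the first comparison (26.3% and 26.6% of all genes) and 3 higher and 1 lower in the next (21.2% and 19.8%). Both called 0 between 21 mo/O304 and 18 mo, where DESeq2 gave an adjusted p for 5 of the 7. The median log2 fold change of the 7 was 0.24, 0.07 and 0.18 in that order. Cldn12, which is abundant in kidney, measured 91.9, 96.2 and 87.9 CPM in 18 mo, 120.4, 80.5 and 56.7 CPM in 21 mo and 99.8, 116 and 97.5 CPM in 21 mo/O304, with the lowest value in 21 mo replicate 3 as for Cldn2 and Cldn10. Cldn23 had 2, 0 and 0 counts in 18 mo, 5, 16 and 100 counts in 21 mo and 4, 2 and 1 counts in 21 mo/O304, and was not tested in the fit to all libraries.

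Cldn18 was lower in 21 mo without overlap (log2 fold change -2.40, SE 0.85, edgeR adjusted p = 0.124) and higher in 21 mo/O304 than in 21 mo without overlap (2.44, SE 0.85, edgeR adjusted p = 0.188), from counts of at most 23 in any library. It overlaps an antisense gene, Gm16004, with at most 18 counts. Cldn6 was lower in 21 mo/O304 than in 21 mo without overlap (-1.53, SE 0.37, edgeR adjusted p = 0.175), also from at most 40 counts. Cldn15, a cation pore, and Cldn5, the claudin of endothelium, had log2 fold changes of -0.17 (SE 0.32) and 0.24 (SE 0.31) for 21 mo against 18 mo. Those of Cldn34c1 and of the claudin relative Cldnd1 were 0.77 (SE 0.54) and 0.25 (SE 0.12), and the Cldnd1 mice of 21 mo all lay above those of 18 mo.

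The scaffold and membrane partners of claudins at the tight junction were next examined as a list of 34, of which 32 were in the table and tested. None passed an adjusted p of 0.05 in any comparison, and the median log2 fold change was 0.05, -0.15 and -0.07. At an unadjusted p under 0.05 stood 6 higher and 2 lower in 21 mo than in 18 mo, 3 higher and 7 lower in 21 mo/O304 than in 21 mo, and 1 higher and 3 lower in 21 mo/O304 than in 18 mo. For 32 genes these are counts beside 14.0% of all genes higher and 12% lower, 8.27% and 12.4%, and 4.33% and 5.33%. DESeq2 called Cxadr and Jam2 higher and Prkcz lower in 21 mo than in 18 mo (6.90% and 5.41% of all genes) and Lsr lower in 21 mo/O304 than in 21 mo (4.04%). limma voom with weights called 14 higher and 6 lower (26.3% and 26.6% of all genes), then 4 higher and 13 lower (21.2% and 19.8%). Both called 0 between 21 mo/O304 and 18 mo. For 21 mo against 18 mo the smallest p-values belonged to Prkcz, the polarity kinase (-0.87, edgeR adjusted p = 0.0770), Cxadr, a junctional adhesion protein (0.90, 0.0775), Jam2, another (1.05, 0.0864), Tjp1, the scaffold ZO-1 (0.69, 0.117), and Crb3, a polarity protein (-0.34, 0.147). Tjp1 stood at 52.2, 33.6 and 50.2 CPM in 18 mo and at 53.9, 72.1 and 93.7 CPM in 21 mo, where all 21 mo mice were higher.

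In 21 mo/O304 against 21 mo the partners with the smallest p-values were Lsr, which marks tricellular contacts (-0.77, edgeR adjusted p = 0.175), Tjp3, the scaffold ZO-3 (-1.01, 0.181), Cxadr (-0.70, 0.182), Pard6a (0.70, 0.182) and Marveld2, the tricellular protein tricellulin (-0.58, 0.182). Lsr stood at 22.9, 30.7 and 25.3 CPM in the 21 mo mice and at 16.6, 16.8 and 12.9 CPM in the 21 mo/O304 mice, which did not overlap. Against 18 mo they were Lsr (-0.48, edgeR adjusted p = 0.402), Jam2 (0.77, 0.464), Arhgef18 (-0.31, 0.478), Tjp3 (-0.77, 0.4995) and Crb3 (-0.29, 0.517).

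Of 26 regulators of claudins, 23 were tested and none passed. Their median log2 fold change was 0.06, 0.10 and -0.18. An unadjusted p under 0.05 was found for 3 higher and 8 lower in the first comparison, 7 higher and 6 lower in the next, and 0 in the last, beside the same shares of all genes (14.0% and 12%, 8.27% and 12.4%, 4.33% and 5.33%). Of these 23, DESeq2 called 2 higher and 4 lower in the first comparison (6.90% and 5.41% of all genes), 4 higher and 3 lower in the next (1.71% and 4.04%) and 0 in the last. limma voom with weights called 7 higher and 10 lower (26.3% and 26.6%), then 9 higher and 8 lower (21.2% and 19.8%), then 0. For 21 mo against 18 mo those with the smallest p-values included Trpv4, a cation channel (-0.56, edgeR adjusted p = 0.0878), Ehf (1.86, 0.0918), Ovol1 (-1.13, 0.0940) and Elf3 (1.68, 0.102). Ehf and Elf3 are transcription factors of epithelia. Elf3 stood at 19.8, 13.7 and 14.3 CPM in 18 mo, 14.98, 46.2 and 92.0 CPM in 21 mo and 16.6, 10.5 and 10.6 CPM in 21 mo/O304, and so was highest in the same mice as Cldn7 and Cldn4.

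For 21 mo/O304 against 21 mo the regulators with the smallest p-values included Ovol1 (1.29, edgeR adjusted p = 0.175), Elf3 (-2.02, 0.175), Ehf (-2.04, 0.175) and Klhl3, which controls degradation of the WNK kinases (1.36, 0.175). Against 18 mo they included Wnk1 (0.52, edgeR adjusted p = 0.557), Wnk4 (-0.26, 0.668) and Spint2 (-0.25, 0.7015).

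Summed markers of tubule injury and of urothelium were highest in 21 mo replicates 2 and 3, as were several claudins. All 16 tubule injury markers were higher in 21 mo than in 18 mo in the fit, 14 at an unadjusted p under 0.05 and 0 at an adjusted one, with a median log2 fold change of 3.04, beside 14.0% of all genes higher at that level. DESeq2 called 13 of them higher (6.90% of all genes) and limma voom with weights 16 (26.3%). Havcr1 (KIM-1) was at 11.6, 475 and 61.2 CPM and Lcn2 (NGAL) at 17.5, 323 and 1258 CPM in 21 mo replicates 1, 2 and 3, against at most 23.5 and 15.4 CPM in 18 mo. Of 8 urothelium markers 3 were tested, and the list summed to 4.55, 52.3 and 358 CPM in the 21 mo mice, against 0.801 to 3.28 CPM in 18 mo and 0.930 to 2.32 CPM in 21 mo/O304. In the urothelium list, Krt14 and Krt15 were at 0 in all 18 mo libraries, and Krt14 was at 0 in all 21 mo/O304 libraries. In 21 mo, Krt14 ranged from 0 to 34.2 CPM and Krt15 from 0 to 89.2 CPM. Upk1b was at 0.602, 6.82 and 55.6 CPM and Upk1a at 1.54, 6.37 and 33.1 CPM in the 21 mo mice, the same order as for Cldn4. Urothelium is known to carry claudins of its own, Cldn4 and Cldn7 among them, and the part of this epithelium or of tubule injury in the claudin levels was not tested.

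Immune cell markers summed to 1271, 1814 and 3341 CPM in 21 mo, against 587 to 806 CPM in 18 mo and 929 to 1213 CPM in 21 mo/O304, with Ptprc (CD45) at 1.21 and Cd68 at 1.45 log2 units higher in 21 mo than in 18 mo (edgeR adjusted p = 0.0631 and 0.114). Fibroblast markers summed to 178, 670 and 1765 CPM in 21 mo, against 226 to 347 CPM in 18 mo and 140.3 to 339.9 CPM in 21 mo/O304, and Col1a1 was 1.66 and Col1a2 1.52 log2 units higher than in 18 mo (edgeR adjusted p = 0.196 and 0.185). Endothelial markers had a log2 fold change below 0 in 21 mo for all 10 genes, with a median of -0.37 (Pecam1 at -0.19 and Cdh5 at -0.24, which stand first in the list). In the other epithelia the first markers were Lrp2 (-0.45) and Cubn (-0.22) for the proximal tubule, Umod (0.28) and Slc12a1 (0.09) for the thick ascending limb, Slc12a3 (-0.99) and Pvalb (-1.57) for the distal convoluted tubule, Aqp2 (0.29) and Aqp3 (-0.68) for principal cells, Atp6v1g3 (-0.67) and Atp6v0d2 (0.29) for intercalated cells, and Nphs1 (0.56) for podocytes. Over the whole lists, 11 of 12 proximal tubule and 6 of 11 thick ascending limb markers were lower in 21 mo. So were all 10 distal convoluted tubule, 3 of 11 principal cell, 8 of 10 intercalated cell and 2 of 10 podocyte markers. The list medians were -0.81, -0.003, -0.43, 0.10, -0.62 and 0.59 in that order, beside 0.03 for all genes tested. None of these passed an adjusted p of 0.05. Their part in the claudin values was not tested.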

How the data were processed

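Per the labels and the study's methods, kidney RNA of 9 mice was sequenced, 1 library per mouse, and the authors aligned reads with HISAT2 (2.0.5) and deposited raw counts per gene from featureCounts (1.5.0-p3). The authors also gave FPKM, which they derived from these counts and the gene lengths. The submitters' processing notes name build GRCm38. Strand and the treatment of multiply mapping reads are not given in the sources used here. The fold changes and p-values of the authors' own comparisons (DESeq2 1.20.0) were not used.

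Counts were tested with edgeR (4.0.16, R 4.3.3) after filterByExpr (minimum count 10, total 15) and TMM, over all 9 libraries with 3 group means and 6 residual degrees of freedom, two-sided, with Benjamini-Hochberg adjustment over all genes and a threshold of 0.05. SE values are the log2 fold change divided by the root of F. log2 CPM used a prior count of 2, and CPM is TMM-normalized. Levels of a claudin relative to its segment markers were compared between groups by exact permutation tests on the difference of means. On simulated counts for 21 mo against 18 mo, edgeR recovered 67.7% of 195 genes changed 4-fold among 15626 tested, with 5.04% false calls. The simulation gave a gene the same spread in every group, whereas the real 21 mo libraries varied more than the others. These rates therefore need not hold for the real data.

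The claudins and all lists were chosen with earlier results of these data known. Named were all 10 claudins, other claudins averaging at least 10 counts, the 5 partners and 5 regulators with the smallest p per comparison, the 3 genes most like each claudin by Pearson r, and the first 2 genes of each marker list. Some results this rule names need withheld items and are not reported here. Krt14, Krt15 and Cldn23's per-mouse counts were added after the values were seen. Alternatives were DESeq2 (1.42.0), limma (3.58.1) voom with weights, limma-trend on log2(FPKM + 1) with a mean of at least 0.5, upper-quartile normalization, other filters, the 6 libraries compared, a replicate block, the first 4 markers of a list, and leaving out each library.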

Additional observations from a re-analysis of the deposited data

How the results depend on the processing

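The count of claudins past an adjusted p of 0.05 was 0 in all 3 comparisons under upper-quartile normalization, both other filters, the 6 libraries compared, limma-trend on FPKM and a replicate block. It was 3 and 4 with DESeq2, and 7 and 7 with limma voom and weights, for 21 mo against 18 mo and, in the same order, 21 mo/O304 against 21 mo. An unadjusted p under 0.05 gave 5, 6 and 1 in the 3 comparisons. Leaving out each library in turn gave 0 to 7 and 0 to 8, with the highest without 21 mo replicate 1, and 0 throughout for 21 mo/O304 against 18 mo. The highest counts include Cldn14, which passed the filter there only through the group where it is high. Claudins without overlap then numbered 0 to 9, 2 to 7 and 2 to 5. Without 21 mo replicate 1 they were 9 of 9 for 21 mo against 18 mo, beside 54.8% of all genes, and 7 of 9 for 21 mo/O304 against 21 mo, beside 52.1%. For 21 mo against 18 mo they were 5 without 18 mo replicate 1, beside 38.6% of all genes. Without 21 mo/O304 replicate 1 they were 4 against 21 mo, beside 30.8%, and 5 against 18 mo, beside 39.3%, and without 21 mo/O304 replicate 2 they were 4 against 18 mo, beside 34.5%.

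Of the fold changes of single claudins under all alternatives, 418 kept their direction and side of the threshold, 34 newly passed it and 7 reversed. Leaving out single libraries moved Cldn2 for 21 mo against 18 mo from -0.46 to 0.21, and for 21 mo/O304 against 21 mo it moved Cldn8 from -0.25 to 0.012 and Cldn10 from -0.087 to 0.63. In 21 mo/O304 against 18 mo it moved Cldn1 from -0.0044 to 0.57, Cldn3 from -1.10 to 0.13 and Cldn4 from -0.17 to 0.26, and voom with weights put Cldn4 at -0.033. The cause was not tested. Of the values relative to segment markers, 186 moved by less than the spread between replicates and 3 by more, all 3 with the first 4 principal cell markers alone.

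The labels do not say that replicate numbers pair the samples. Over 9 pairs of same-numbered libraries the correlation of deviations ran from -0.13 to 0.17, and 5 were over 0.1. For libraries of different numbers it ran from -0.26 to 0.20. These values do not settle whether the samples are paired. With 3 mice per group, the exact test cannot give a p under 0.1, and Cldn14 lies near the limit of detection.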
